A study of Mus musculus with 19 samples.

Results

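Messenger RNA of 10 unfolded protein response (UPR) genes was measured in small intestinal crypts of 19 mice that either had or lacked neurotensin (NT) and were fed or fasted. The 10 genes were taken by symbol: the stress sensors Ern1, Ern2, and Atf6, the transcription factor Xbp1, the chaperones Hspa5 and Hsp90b1, the cochaperones Dnajb9, Sdf2l1, and Creld2, and the degradation factor Herpud1. Each symbol matched 1 gene of the 55487 listed, and all 10 passed the filter on low counts that left 17875 genes for testing. Genes that passed the test on fasting went in both directions. In both genotypes the chaperone and cochaperones Hsp90b1, Sdf2l1, and Creld2 fell, by 1.27- to 1.90-fold, and Herpud1 rose, by 1.70- to 1.78-fold, whereas the sensors Ern1 and Atf6 passed the test in neither genotype. Hsp90b1 was less firm: leaving out 1 mouse, it no longer passed in 9 of 19 fits for NT-/- and 1 of 19 for NT+/+ mice. Between NT-/- and NT+/+ mice on the same diet, no difference passed the test for any of the 10 genes.

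The UPR is the program by which a cell answers unfolded proteins in the endoplasmic reticulum (ER), the compartment where secreted and membrane proteins are folded. The sensors IRE1 (encoded by Ern1 and, in mucosal epithelium, Ern2), ATF6, and PERK sit in the ER membrane and are held back by the chaperone BiP (Hspa5) until unfolded proteins draw it away. Active IRE1 splices Xbp1 messenger RNA so that it encodes a potent transcription factor, ATF6 is cut to release another, and together these raise chaperones, folding enzymes, and the machinery that sends failed proteins to the proteasome. Secretory cells of the crypt, such as Paneth and goblet cells, are known for a high demand on this program.

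The study asked how NT, a gut peptide hormone released by fat ingestion, acts on the crypt when nutrients are plentiful or absent. Ad libitum feeding (AL) was given to 5 NT+/+ and 4 NT-/- mice, and a fast of 48 hours with water only (Fast) to 5 mice of each genotype. All were of the C57BL/6 strain, of both sexes, and 10 to 16 weeks old, and controls were littermates on standard chow. Each mouse gave 1 library, so replicates are separate animals. The NT-/- mice lack NT, and the methods describe both genotypes with the Lgr5-EGFP-IRES-CreERT2 allele, a stem cell reporter, although the labels do not say which of the sequenced mice carried it. Crypts were freed with EDTA and sequenced whole, so a value is an average over stem, progenitor, Paneth, goblet, and other cells. The methods describe crypts from the proximal part of the small intestine, without its distal end. In the paper's tissue sections, NT-/- mice differed in proliferating and goblet cells in the distal intestine and not in the proximal.

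The labels of NT+/+ Fast replicate 5 disagree: its title gives NT+/+, and its genotype field gives NT-/-. It was grouped by its title. Nts, the gene that encodes NT, stood at 5.43 CPM (counts relative to the library total) in this mouse, within the range of 4.98 to 8.59 CPM in NT+/+ mice and above that of 0.144 to 0.793 CPM in NT-/- mice. Library totals ran from 9059418 to 35068669 counts (median, 18541770), with medians by group between 17211169 and 19808118. The 2 libraries of lowest total are NT-/- Fast replicates 2 and 4. Epcam, which marks epithelium, was at 982 to 1042 CPM in the means of the fed and fasted NT+/+ groups, and Lyz1 of Paneth cells and Muc2 of goblet cells were abundant, whereas the summed stromal and endothelial markers did not exceed 14.8 CPM in any mouse.

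Before the values, the promoters of 4 of the genes are shown, because they hold the elements to which the factors ATF6 and XBP1 are known to bind. RefSeq windows on GRCm38.p6 that cover 250 bases before to 50 bases after a gene's start matched 8 of the 10 genes (not Ern2 or Atf6). The ER stress element (ERSE, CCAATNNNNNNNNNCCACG, searched on both strands) was in the window of 37 of 27025 genes (0.137%), and the 8 windows held it for Hspa5, Creld2, and Hsp90b1. The second element (ERSE-II, ATTGG and CCACG with any 1 base between them) was in 12 genes (0.0444%), among them Herpud1. Both elements end in CCACG, which by itself was in 35.5% of genes and in 7 of the 8, and the core of the UPR element, TGACGTGG, was in 193 genes (0.714%) and in none of the 8. The 250 bases before the start follow in gene direction, with the fixed letters of the element in capitals. They lie at chr2:34771840-34772089 on the plus strand for Hspa5, chr10:86705445-86705694 on the minus strand for Hsp90b1, chr15:88819396-88819645 on the plus strand for Creld2, and chr8:94386179-94386428 on the plus strand for Herpud1.
Hspa5: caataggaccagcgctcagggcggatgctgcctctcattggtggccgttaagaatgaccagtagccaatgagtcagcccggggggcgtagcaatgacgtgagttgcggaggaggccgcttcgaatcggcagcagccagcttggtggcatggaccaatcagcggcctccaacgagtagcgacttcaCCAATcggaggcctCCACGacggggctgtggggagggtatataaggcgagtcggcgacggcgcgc
Hsp90b1: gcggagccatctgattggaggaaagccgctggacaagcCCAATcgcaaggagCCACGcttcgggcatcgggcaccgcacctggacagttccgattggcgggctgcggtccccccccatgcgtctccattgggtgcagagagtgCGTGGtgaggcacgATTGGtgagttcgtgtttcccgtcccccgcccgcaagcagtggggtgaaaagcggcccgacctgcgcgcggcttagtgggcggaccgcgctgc
Creld2: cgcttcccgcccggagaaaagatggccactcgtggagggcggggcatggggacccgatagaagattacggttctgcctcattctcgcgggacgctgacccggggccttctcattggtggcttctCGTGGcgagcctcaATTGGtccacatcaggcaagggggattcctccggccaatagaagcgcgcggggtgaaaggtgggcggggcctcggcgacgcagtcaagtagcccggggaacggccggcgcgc
Herpud1: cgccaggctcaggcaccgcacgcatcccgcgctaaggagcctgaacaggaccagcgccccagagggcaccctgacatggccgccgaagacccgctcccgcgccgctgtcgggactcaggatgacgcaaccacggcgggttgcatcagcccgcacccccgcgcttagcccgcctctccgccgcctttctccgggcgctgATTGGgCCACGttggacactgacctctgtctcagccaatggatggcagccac
The ERSE of Hspa5 is at bases 186 to 204 of this stretch, that of Creld2 at bases 125 to 143 on the opposite strand, and those of Hsp90b1 at bases 39 to 57 and, on the opposite strand, 144 to 162. The ERSE-II of Herpud1 is at bases 199 to 209. A match describes the letters only; whether a factor was bound was not measured.

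Levels of different genes were compared per transcript length, in TPM, which divides read counts by transcript length and scales every library to the same total. In the NT+/+ AL group the order ran from Hsp90b1 at 357 ± 28.1 TPM (SD, n = 5) and Hspa5 at 308 ± 55.1 TPM, the abundant chaperones, through Xbp1 at 114 ± 10.7 TPM and Herpud1 at 51.4 ± 5.29 TPM, to Sdf2l1 at 37.3 ± 7.47 TPM and Creld2 at 34.3 ± 6.32 TPM. The sensors were the rarer messages, with Ern1 at 21.3 ± 2.71 TPM, Ern2 at 19.7 ± 2.51 TPM, and Atf6 at 14.7 ± 1.44 TPM, and Dnajb9 was the lowest at 11.7 ± 2.53 TPM. The mice of this group overlapped in their ranges between Hsp90b1 and Hspa5, between Herpud1 and Sdf2l1, between Sdf2l1 and Creld2, between Ern1 and Ern2, and between Atf6 and Dnajb9, and not between the other neighbors. In the NT+/+ Fast group Sdf2l1 (19.8 ± 3.29 TPM) and Creld2 (19.1 ± 3.21 TPM) stood below Ern1 (22.0 ± 3.95 TPM) and Ern2 (21.6 ± 1.58 TPM), with overlapping ranges, and Herpud1 (84.2 ± 20.3 TPM) overlapped Xbp1 (142 ± 24.7 TPM).

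**Figure D1:**
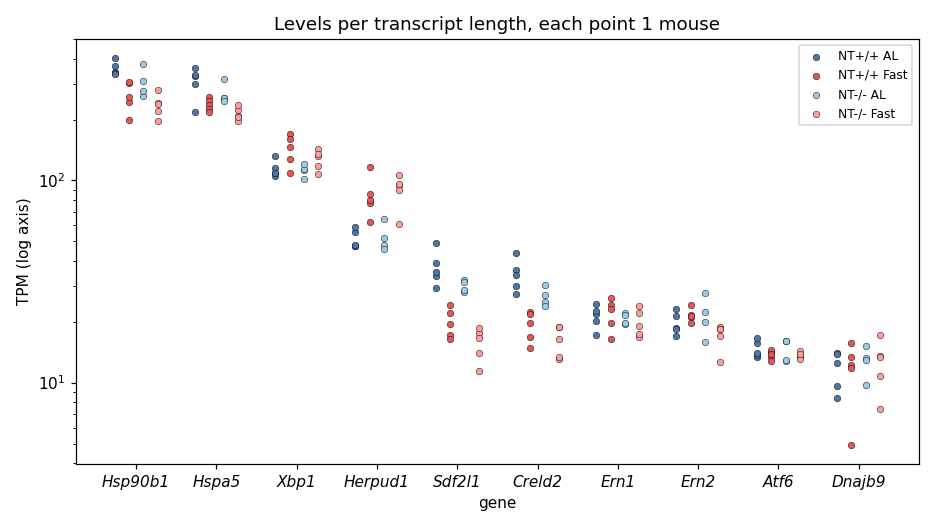
Level of the 10 genes per transcript length in each mouse, in TPM on a log axis, with genes ordered by their mean in NT+/+ AL mice. Each point is 1 mouse and colors mark the 4 groups. Hsp90b1 and Hspa5 lie highest and Dnajb9 lowest in each group, and the fasted points sit below the fed points for Sdf2l1 and Creld2 and above them for most mice at Herpud1.

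Fasted and fed mice of the same genotype were then compared with edgeR's quasi-likelihood test on counts, with Benjamini-Hochberg adjustment over the 17875 genes and a call at an adjusted p under 0.05. In NT+/+ mice 5 of the 10 genes were called, 2 higher and 3 lower, where 21.6% of all genes tested were called. In NT-/- mice 4 were called, 1 higher and 3 lower, against 25.2% of all genes. Before adjustment 6 of the 10 had p under 0.05 in NT+/+ mice (34.1% of all genes) and 5 in NT-/- mice (36.5%). The 4 genes Herpud1, Sdf2l1, Creld2, and Hsp90b1 were called in both genotypes, in the same direction in each. The median log2 fold change of the 10 genes was 0.01 in NT+/+ mice and -0.18 in NT-/- mice, beside -0.01 and -0.02 over all genes. Grouping NT+/+ Fast replicate 5 as NT-/-, or leaving it out, gave the same 5 calls in NT+/+ mice. The groups did not overlap for 3 of the 10 genes in NT+/+ mice (14.6% of all genes) and for 4 in NT-/- mice (21.3%). Fewer cells of a type and less RNA per cell cannot be told apart in these whole-crypt libraries. Values in CPM are given below by replicate, relative to library totals scaled by the trimmed mean of M values.

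**Figure D2:**
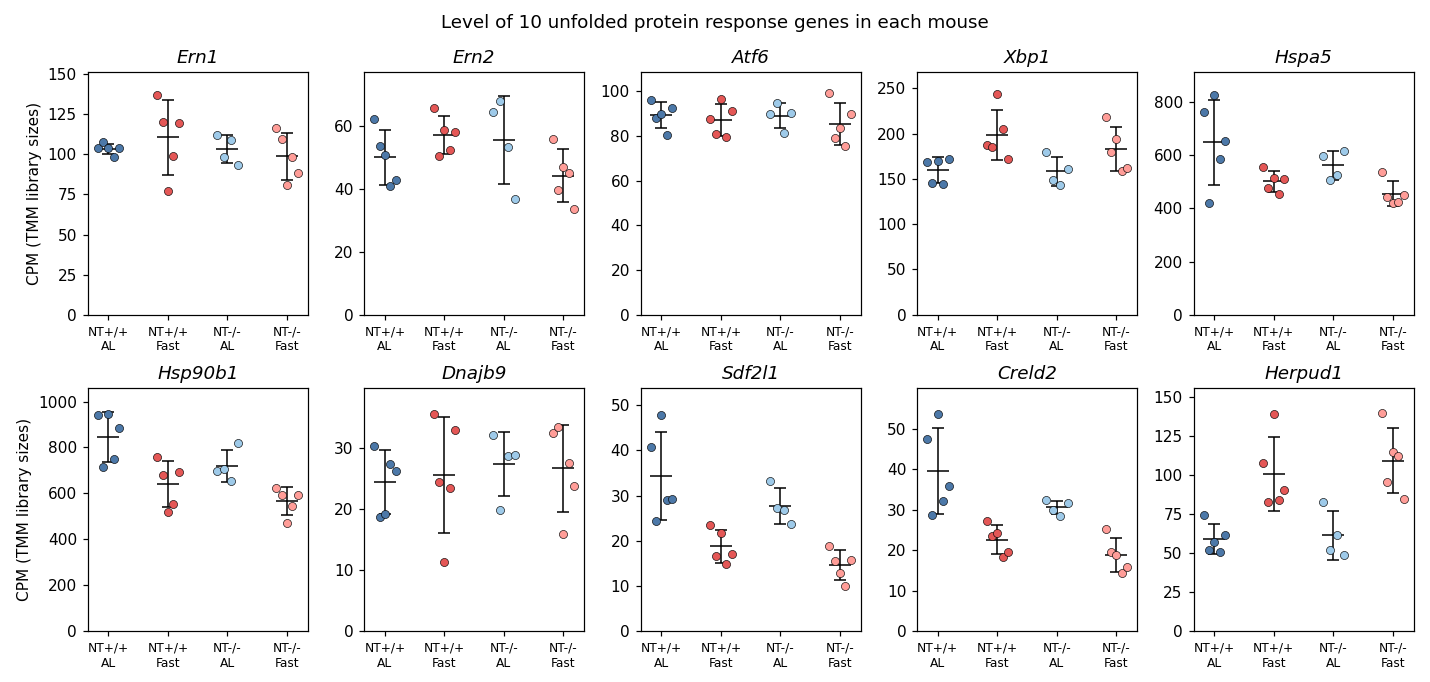
Level of each of the 10 genes in CPM by group, with 1 point per mouse, the group mean as a horizontal line, and bars of 1 SD; vertical axes start at 0 and differ between genes. The fed and fasted mice separate fully within each genotype for Herpud1, Sdf2l1, and Creld2, and overlap for the sensors Ern1, Ern2, and Atf6.

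Ern1 (ENSMUSG00000020715, chr11:106394650-106487852, minus strand) encodes IRE1 alpha, the kinase and endonuclease that splices Xbp1. Its level was 98.6 to 107 CPM in NT+/+ AL mice and 93.6 to 112 CPM in NT-/- AL mice. After the fast it was 137, 119.9, 76.9, 99.1, and 119 CPM in NT+/+ mice and 116, 109, 80.9, 98.4, and 88.3 CPM in NT-/- mice. Fasted mice thus lay on both sides of the fed ones, with an SD of 23.1 CPM in the NT+/+ Fast group against 3.16 CPM in the NT+/+ AL group. The log2 fold change was 0.09 (SE, 0.12) in NT+/+ mice and -0.07 (SE, 0.13) in NT-/- mice, with adjusted p values of 0.629 and 0.761 by edgeR's quasi-likelihood test.

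Atf6 (ENSMUSG00000026663, chr1:170704674-170867771, minus strand), the sensor that is itself cut into a transcription factor, had the smallest SE of the 10 genes in each fasting comparison. Its values were 80.1 to 96.0 CPM in NT+/+ AL, 79.4 to 96.4 CPM in NT+/+ Fast, 81.3 to 94.5 CPM in NT-/- AL, and 75.5 to 99.3 CPM in NT-/- Fast mice. All 4 groups covered nearly the same range. The log2 fold change on fasting was -0.04 (SE, 0.08; adjusted p = 0.789) in NT+/+ mice and -0.06 (SE, 0.08; adjusted p = 0.669) in NT-/- mice by edgeR's quasi-likelihood test.

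Ern2 (ENSMUSG00000030866, chr7:122169893-122186207, minus strand), the IRE1 beta of mucus-secreting epithelium, was the gene whose fasting effect had opposite signs in the genotypes by the widest margin. NT+/+ AL mice had 62.5, 53.7, 50.7, 40.9, and 42.8 CPM and NT+/+ Fast mice 65.8, 50.6, 58.9, 52.5, and 58.2 CPM. NT-/- AL mice had 64.6, 68.1, 53.4, and 36.9 CPM and NT-/- Fast mice 56.0, 39.8, 47.1, 45.1, and 33.6 CPM. Fed and fasted mice overlapped in each genotype, and NT-/- AL replicate 4 lay within the range of the fasted mice of its genotype. The log2 fold change was 0.19 (SE, 0.15; adjusted p = 0.414) in NT+/+ mice and -0.33 (SE, 0.16; adjusted p = 0.150) in NT-/- mice by edgeR's quasi-likelihood test. Without NT-/- AL replicate 4 the change in NT-/- mice was -0.48 and was called (adjusted p = 0.0250 in the same test). It was also called with every mouse kept and the replicate block by file number (adjusted p = 0.0424). Without a block and with every mouse, the difference between the fasting effects of the genotypes was -0.52 (SE, 0.22), with an adjusted p of 0.9998 in edgeR's quasi-likelihood test.

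Xbp1 (ENSMUSG00000020484, chr11:5520659-5525893, plus strand), the factor made active by splicing, rose on fasting in NT+/+ mice. The counts are per gene and do not separate spliced from unspliced Xbp1. In NT+/+ AL mice the values were 169, 145, 169, 144, and 172 CPM and in NT+/+ Fast mice 188, 185, 243, 205, and 171 CPM. In NT-/- AL mice they were 179.6, 149, 144, and 161 CPM and in NT-/- Fast mice 218, 180.1, 194, 159, and 162 CPM. Replicate 3 was the highest of the fasted NT+/+ mice, and 4 of these 5 exceeded every fed mouse of their genotype, whereas in NT-/- mice 3 of 5 did. The change was 1.24-fold in NT+/+ mice (log2 fold change, 0.31; SE, 0.10; adjusted p = 0.0347) and 1.15-fold in NT-/- mice (log2 fold change, 0.21; SE, 0.11; adjusted p = 0.180) by edgeR's quasi-likelihood test. In NT+/+ mice the call was lost without AL replicate 2 (adjusted p = 0.0829), AL replicate 4 (0.0847), Fast replicate 3 (0.110), or Fast replicate 4 (0.0711).

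Hspa5 (ENSMUSG00000026864, chr2:34771970-34777547, plus strand) encodes BiP, the chaperone of the ER lumen that also restrains the sensors, and its promoter holds the ERSE printed above. NT+/+ AL mice had 761, 418, 823, 583, and 650.4 CPM and NT+/+ Fast mice 556, 476, 514, 452, and 508 CPM. NT-/- AL mice had 597, 506, 525, and 616 CPM and NT-/- Fast mice 537, 443, 419.6, 424, and 449.6 CPM. NT+/+ AL replicate 2 was below all 5 fasted NT+/+ mice, and the other 4 fed mice were above all of them. In NT-/- mice 4 of 5 fasted mice were below every fed mouse. The log2 fold change was -0.37 (SE, 0.13; adjusted p = 0.0559) in NT+/+ mice and -0.30 (SE, 0.14; adjusted p = 0.129) in NT-/- mice by edgeR's quasi-likelihood test, so neither was called. Without NT+/+ AL replicate 2 both changes were called in that test (adjusted p = 0.00337 in NT+/+ and 0.0456 in NT-/- mice), and the change in NT+/+ mice was also called without NT+/+ Fast replicate 1 (0.0490) or NT-/- Fast replicate 1 (0.0498). It was called as well with a minimum of 10 counts, upper quartile scaling, DESeq2, or the replicate number as a block (adjusted p = 0.0201 to 0.0417), and the change in NT-/- mice was called with the block by file number. The Hspa5 result in NT+/+ mice thus lay at the threshold.

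Hsp90b1 (ENSMUSG00000020048, chr10:86690209-86705509, minus strand) encodes GRP94, the HSP90 chaperone of the ER, and had 2 ERSE matches. It fell in both genotypes. In NT+/+ AL mice the values were 941, 713, 944, 749, and 887 CPM and in NT+/+ Fast mice 758, 678, 519.6, 553, and 693 CPM. In NT-/- AL mice they were 695, 706, 653, and 818 CPM and in NT-/- Fast mice 624, 594, 469.5, 545, and 594 CPM. Only Fast replicate 1 reached into the fed range in NT+/+ mice, and in NT-/- mice the groups did not overlap. The level was 1.32-fold lower in NT+/+ mice (log2 fold change, -0.40; SE, 0.12; adjusted p = 0.0168) and 1.27-fold lower in NT-/- mice (log2 fold change, -0.35; SE, 0.12; adjusted p = 0.0444) by edgeR's quasi-likelihood test. The first call was lost without NT+/+ Fast replicate 4 (adjusted p = 0.0519). The second lay near the threshold: it was lost with NT+/+ Fast replicate 5 grouped by its genotype field (adjusted p = 0.0954), without the 2 libraries of lowest total (0.101), and without any 1 of 9 mice (0.0516 to 0.142), which were NT-/- AL replicates 1, 2, and 4, NT-/- Fast replicates 2 to 5, NT+/+ AL replicate 5, and NT+/+ Fast replicate 2. The gene overlaps 1810014B01Rik on the other strand (2575 counts over all mice against 245558 for Hsp90b1), and the strand setting of the counting is not given in the sources used here.

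The cochaperones Sdf2l1 and Creld2 fell furthest. Sdf2l1 (ENSMUSG00000022769, chr16:17130138-17132383, minus strand) encodes a partner of ER-resident DnaJ proteins that assists BiP. NT+/+ AL mice had 40.8, 24.3, 47.9, 28.9, and 29.2 CPM and NT+/+ Fast mice 23.4, 16.6, 21.6, 14.9, and 17.1 CPM. NT-/- AL mice had 33.2, 27.3, 26.8, and 23.6 CPM and NT-/- Fast mice 18.7, 15.4, 12.8, 9.96, and 15.7 CPM. Every fasted mouse was below every fed mouse of its genotype, although NT+/+ AL replicate 2 and NT+/+ Fast replicate 1 were close. The level was 1.82-fold lower in NT+/+ mice (log2 fold change, -0.87; SE, 0.18; adjusted p = 0.00219) and 1.90-fold lower in NT-/- mice (log2 fold change, -0.93; SE, 0.20; adjusted p = 0.00171) by edgeR's quasi-likelihood test.

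Creld2 (ENSMUSG00000023272, chr15:88819646-88826683, plus strand) encodes a cysteine-rich ER protein that is induced by ER stress and has disulfide isomerase activity. In NT+/+ AL mice the values were 47.3, 28.6, 53.6, 32.2, and 35.8 CPM and in NT+/+ Fast mice 27.1, 23.5, 24.1, 18.4, and 19.5 CPM. In NT-/- AL mice they were 32.3, 29.8, 28.5, and 31.5 CPM and in NT-/- Fast mice 25.1, 19.6, 18.7, 14.4, and 15.8 CPM. Fed and fasted mice separated fully in both genotypes, and the same fed NT+/+ mice, replicates 1 and 3, were highest for Creld2, Sdf2l1, and Hspa5. The fall was 1.75-fold in NT+/+ mice (log2 fold change, -0.81; SE, 0.16; adjusted p = 0.00155) and 1.62-fold in NT-/- mice (log2 fold change, -0.70; SE, 0.17; adjusted p = 0.00576) by edgeR's quasi-likelihood test.

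Dnajb9 (ENSMUSG00000014905, chr12:44205559-44210326, minus strand), the DnaJ cochaperone ERdj4 and a known target of XBP1, was called in neither genotype. It ranged from 18.6 to 30.3 CPM in NT+/+ AL, 11.3 to 35.6 CPM in NT+/+ Fast, 19.9 to 32.0 CPM in NT-/- AL, and 15.9 to 33.4 CPM in NT-/- Fast mice. The fasted range enclosed the fed one in each genotype. Its log2 fold change was 0.07 (SE, 0.24; adjusted p = 0.880) in NT+/+ mice and -0.05 (SE, 0.26; adjusted p = 0.924) in NT-/- mice by edgeR's quasi-likelihood test, the widest errors of the 10 genes.

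Herpud1 (ENSMUSG00000031770, chr8:94386438-94395377, plus strand) encodes an ER membrane protein that helps assemble the ubiquitin ligase complex for ER-associated degradation (ERAD), and its promoter holds the ERSE-II printed above. NT+/+ AL mice had 74.3, 52.1, 57.1, 50.7, and 61.8 CPM and NT+/+ Fast mice 108, 83.0, 139, 83.8, and 90.4 CPM. NT-/- AL mice had 82.9, 51.7, 61.6, and 48.9 CPM and NT-/- Fast mice 139.6, 95.5, 115, 112, and 84.5 CPM. Each fasted mouse exceeded each fed mouse of its genotype, with the smallest gap between NT-/- AL replicate 1 and NT-/- Fast replicate 5. Herpud1 rose 1.70-fold in NT+/+ mice (log2 fold change, 0.77; SE, 0.17; adjusted p = 0.00281) and 1.78-fold in NT-/- mice (log2 fold change, 0.83; SE, 0.18; adjusted p = 0.00210) by edgeR's quasi-likelihood test. The antisense gene Gm15890 overlaps it, with 234 counts over all mice against 28871 for Herpud1.

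**Figure D3:**
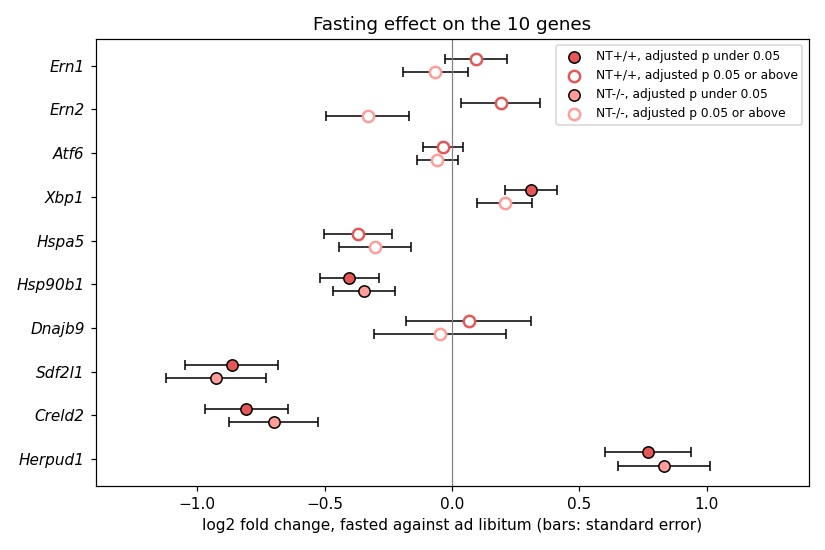
Log2 fold change of each gene in fasted against ad libitum-fed mice, with bars of 1 SE; dark red points are NT+/+ and light red points NT-/- mice, and filled points have an adjusted p under 0.05. Sdf2l1, Creld2, and Hsp90b1 lie below 0 and Herpud1 above 0 in both genotypes, while Ern1, Atf6, and Dnajb9 lie at or near 0.

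Marker genes of several cell types were called on fasting, where 21.6% of all genes were called in NT+/+ and 25.2% in NT-/- mice. Of all genes 11.2% and 12.5% were higher and 10.4% and 12.6% lower. With 0 to 2 genes called of 4 to 8, the stem cell, Paneth cell, enteroendocrine, tuft cell, myeloid, and T cell lists did not stand clearly above these shares. Of 8 enterocyte markers, 6 rose in NT+/+ and 8 in NT-/- mice by the same test, and their summed level was 3819 to 7812 CPM over NT+/+ AL against 7589 to 15815 CPM over NT+/+ Fast mice, and 5769 to 8539 CPM against 13948 to 18724 CPM in NT-/- mice. Of 8 proliferation markers, 5 fell in NT+/+ and 7 in NT-/- mice, with sums of 1635 to 1872 against 1061 to 1431 CPM and of 1579 to 1714 against 937 to 1200.2 CPM. Among 8 goblet cell markers 1 rose and 2 fell in NT+/+ mice and 1 rose and 4 fell in NT-/- mice, and their sums, 9327 to 13571 against 9563 to 11294 CPM and 9561 to 15356 against 7695 to 10306 CPM, overlapped. Agr2, an ER disulfide isomerase of goblet cells, fell 2.00-fold in NT+/+ mice (SE on the log2 scale, 0.16; adjusted p = 2.52e-04 by edgeR's quasi-likelihood test) and 3.01-fold in NT-/- mice. The goblet marker called higher in both genotypes was Zg16, by 1.90-fold in NT+/+ mice (SE on the log2 scale, 0.23; adjusted p = 0.00648 by the same test). Muc2 was not called in NT+/+ mice (log2 fold change, -0.33; SE, 0.18), and 3 of the 8 markers were above 0 in each genotype. Of 8 Paneth cell markers 0 were called in NT+/+ mice (0 with p under 0.05 before adjustment) and 1 was lower in NT-/- mice, with sums of 19519.7 to 34323 against 21532 to 36968 CPM and of 23068 to 39082 against 18210.2 to 44882 CPM. For plasma and B cells, which are rich in UPR transcripts, 0 of the 6 markers tested were called in either genotype (0 before adjustment), and the sums ran from 73.0 to 182 CPM. Much of this was Sdc1, at 69.4 and 75.7 CPM in the means of NT+/+ AL and NT+/+ Fast mice. Igha was at 22.2 ± 9.02 and 20.6 ± 16.0 CPM in the same groups (SD, n = 5 each), so the sums say little about plasma cell content. Of 6 stem cell markers 1 fell in NT+/+ and 2 in NT-/- mice, among them Olfm4 (log2 fold change, -0.63 and -0.92) in both, whereas Lgr5 was at 0.29 (SE, 0.19) and -0.02 (SE, 0.20) and not called. The stem cell sums were 2272 to 3478 against 1457 to 2631 CPM in NT+/+ and 2075 to 3057 against 1485 to 1977 CPM in NT-/- mice. Of 4 myeloid markers tested 1 fell in each genotype, Itgam (-0.83 and -0.54). Of 8 T cell and leukocyte markers 0 were called in NT+/+ mice (1 before adjustment) and 1 rose in NT-/- mice, Gzma (0.97; SE, 0.33), where all 8 fold changes were above 0 (median, 0.77), and the sums were 82.0 to 197 against 78.1 to 280.3 CPM in NT+/+ and 96.0 to 172 against 159 to 262 CPM in NT-/- mice. Of 8 enteroendocrine markers 1 rose in NT+/+ mice, and 1 rose and 1 fell in NT-/- mice. Chga was the 1 called higher in both, at 0.39 (SE, 0.12) in NT+/+ mice. Of 5 tuft cell markers tested 0 were called in either genotype. No marker of these lists was at 0 in all mice. The part of cell composition in the changes of the UPR genes was not tested.

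Genotype was compared within each diet. In ad libitum-fed mice none of the 10 genes was called, against 0.00559% of all genes (1 gene) in edgeR's quasi-likelihood test. Before adjustment 1 of the 10 had p under 0.05, where 1.67% of all genes did: Creld2, at 30.5 ± 1.71 CPM (SD, n = 4) in NT-/- AL and 39.5 ± 10.6 CPM (SD, n = 5) in NT+/+ AL mice, with a log2 fold change of -0.37 (SE, 0.17). Of the 10 fold changes 7 were below 0, of which those of Xbp1, Ern1, and Atf6 lay close to 0 and changed sign under some other settings, and the highest was 0.17 (SE, 0.26), for Dnajb9. The groups overlapped for all 10 genes, while 0.694% of all genes did not overlap.

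In fasted mice none was called either (0.00559% of all genes, 1 gene), and DESeq2 called none of the 10 in either diet. The gene with p under 0.05 before adjustment, where 9.14% of all genes were, was Ern2, at 44.3 ± 8.35 CPM in NT-/- Fast and 57.2 ± 5.96 CPM in NT+/+ Fast mice (SD, n = 5 each), with a log2 fold change of -0.37 (SE, 0.16; adjusted p = 0.468 in edgeR's quasi-likelihood test). Sdf2l1 followed at -0.36 (SE, 0.19), with 14.5 ± 3.32 against 18.7 ± 3.59 CPM and an adjusted p of 0.590. Of the 10 fold changes 8 were below 0, with that of Atf6 changing sign under some other settings, and the highest was 0.12 (SE, 0.17), for Herpud1. Again the groups overlapped for all 10 genes (1.56% of all genes did not). The difference between the fasting effects of NT-/- and NT+/+ mice was called for none of the 10 genes and for none of all genes (0%; before adjustment Ern2 was the 1 of the 10 with p under 0.05, as were 485 genes, 2.71%, and DESeq2 called 1), and for the 4 genes called in both genotypes it lay between -0.06 (SE, 0.27) for Sdf2l1 and 0.11 (SE, 0.24) for Creld2.

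The wider pathway was described with lists of other UPR genes. Of 22 ER chaperones and folding enzymes, 1 was higher and 13 were lower in NT+/+ mice, with a median log2 fold change of -0.33 against -0.01 over all genes, and 1 was higher and 12 were lower in NT-/- mice, with a median of -0.31 against -0.02. Of all genes, 10.4% were called lower in NT+/+ and 12.6% in NT-/- mice. The higher one was P4hb, the main protein disulfide isomerase, at 1187 ± 103 CPM in NT+/+ AL and 1872 ± 146 CPM in NT+/+ Fast mice (SD, n = 5 each; log2 fold change, 0.66; SE, 0.10), and 0.80 (SE, 0.10) in NT-/- mice. Dnajc10, a disulfide reductase, fell by 0.68 (SE, 0.11) and 0.83 (SE, 0.12) on the log2 scale in the 2 genotypes. Uggt1, which checks glycoprotein folding, fell by 0.40 (SE, 0.08) in NT+/+ and 0.44 (SE, 0.09) in NT-/- mice. The prolyl isomerase Fkbp11 fell by 0.82 (SE, 0.17) in NT+/+ and 1.82 (SE, 0.19) in NT-/- mice. Its level was low, with AL and Fast means of 5.35 and 3.02 CPM in NT+/+ and 5.99 and 1.68 CPM in NT-/- mice. The difference between the fasting effects of the genotypes was called for 0 of the 22 genes. Pdia5, another disulfide isomerase, fell by 0.71 (SE, 0.18) in NT+/+ and 1.11 (SE, 0.19) in NT-/- mice. In both genotypes 13 of the 22 were called in the same direction, which are 13 of the 14 called in NT+/+ and all 13 called in NT-/- mice. The count of lower genes in NT-/- mice was 7 without the 2 libraries of lowest total.

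Of 16 ERAD genes, 2 were higher and 1 lower in NT+/+ mice and 3 higher and 1 lower in NT-/- mice, with medians of -0.01 and 0.01. These calls are 18.8% and 25.0% of the list, near the 21.6% and 25.2% of all genes, of which 11.2% and 12.5% were higher. In both genotypes the lectin Os9 (log2 fold change, 0.27 and 0.29) rose and Edem1 (-0.29 and -0.30), which hands glycoproteins to degradation, fell. The relative of Herpud1, Herpud2, rose in NT-/- mice (0.26; SE, 0.08), and the segregase Vcp was at -0.19 (SE, 0.09) in NT+/+ mice with an adjusted p of 0.141 in edgeR's quasi-likelihood test. The number called higher fell to 1 in NT+/+ mice without NT+/+ AL replicate 1, 2, or 4 or NT+/+ Fast replicate 3 or 4. In NT-/- mice it fell to 1 without NT-/- AL replicate 3 or NT-/- Fast replicate 1, and the number called lower was 2 without NT+/+ AL replicate 2, NT-/- AL replicate 4, or NT-/- Fast replicate 1 or 2.

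Of 30 genes of translocation and the early secretory pathway, 1 was higher and 4 lower in NT+/+ mice (median, -0.13) and 2 were higher and 6 lower in NT-/- mice (median, -0.14). The shares called, 16.7% and 26.7%, were again near those of all genes (21.6% and 25.2%). Most fold changes were below 0, in 23 of the 30 genes in NT+/+ and 25 in NT-/- mice, where the medians over all genes were -0.01 and -0.02. The COPII coat gene Sec24d rose in both genotypes (0.57 and 0.67). Another coat gene, Sec23b (-0.35 and -0.44), and the signal peptidase subunit Spcs3 (-0.38 and -0.41) fell in both. So did the translocon subunit Sec61b, which was at -0.32 in NT+/+ mice and was called lower in NT-/- mice as well. The peptidase subunit Sec11c (-0.35) was called lower in NT-/- mice only. This count depended on single mice: in NT+/+ mice 8 were lower without Fast replicate 1 and 2 without AL replicate 1 or 3 or Fast replicate 2 or 4. In NT-/- mice 3 were lower without NT-/- AL replicate 1, 3, or 4, NT-/- Fast replicate 2, 3, or 4, or NT+/+ Fast replicate 2, and 1 was higher without NT-/- AL replicate 3. Under the other alternatives the number called lower ran from 2 to 11 in NT+/+ and from 3 to 11 in NT-/- mice.

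Of 8 genes of the PERK arm, the branch that slows translation, 1 was higher in each genotype and 1 was lower in NT+/+ mice, which are 25.0% and 12.5% of a short list against 21.6% and 25.2% of all genes. The higher one was Trib3, a pseudokinase and target of the factor ATF4, which went from 1.67 ± 0.699 to 4.36 ± 0.984 CPM in NT+/+ mice (SD, n = 5 each; log2 fold change, 1.37; SE, 0.25; adjusted p = 7.08e-04 in edgeR's quasi-likelihood test) and rose by 2.07 (SE, 0.28) in NT-/- mice. Eif2s1, the translation factor that PERK phosphorylates, fell in NT+/+ mice (-0.31; SE, 0.09), a call lost without NT+/+ AL replicate 1, 3, or 5 or NT+/+ Fast replicate 4, and was at -0.21 (SE, 0.10) in NT-/- mice. Atf4 itself was at 0.15 (SE, 0.07; adjusted p = 0.145) in NT+/+ mice, Ppp1r15a, which reverses the phosphorylation, at 0.49 (SE, 0.21; adjusted p = 0.1001), and in NT-/- mice Ppp1r15b was at -0.19 (SE, 0.10; adjusted p = 0.164) and Ddit3, the factor CHOP, at -0.36 (SE, 0.21; adjusted p = 0.234), all in edgeR's quasi-likelihood test and not called.

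Among 11 sensor partners and related factors, 2 were higher and 1 lower in NT+/+ mice and 3 were higher and 3 lower in NT-/- mice (27.3% and 54.5% called, against 21.6% and 25.2% of all genes). Creb3l3, an ER-bound transcription factor of liver and enterocytes known to respond to fasting, rose most, from 66.1 ± 16.3 to 221 ± 51.8 CPM in NT+/+ mice (SD, n = 5 each; log2 fold change, 1.74; SE, 0.19) and by 1.97 (SE, 0.21) in NT-/- mice. Tmbim6, an ER membrane inhibitor of cell death, rose (0.27 and 0.45) and Atf6b, the relative of Atf6, fell (-0.36 and -0.55) in both genotypes, and the kinase Map3k5 fell in NT-/- mice (-0.23; SE, 0.07; -0.17, SE, 0.07, and not called in NT+/+ mice). In NT+/+ mice 1 gene of this list was called higher without any 1 of the 5 AL mice of that genotype or without Fast replicate 2, 3, or 4, and 0 were called lower without AL replicate 1 or 3 or Fast replicate 2 or 4.

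**Figure D4:**
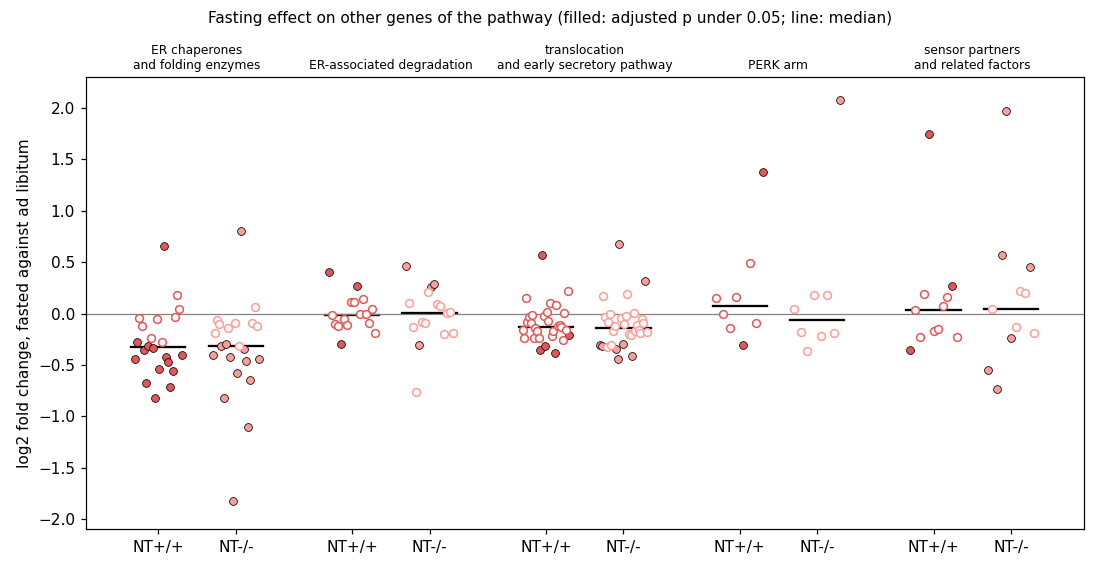
Log2 fold change on fasting of each gene in the 5 lists of other UPR genes, with NT+/+ and NT-/- mice side by side; each point is 1 gene, filled where its adjusted p was under 0.05, and the line is the median of the list. The chaperone list has its median at -0.33 and -0.31, and the other 4 lists have theirs between -0.14 and 0.07.

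The elements shown in the promoters were followed through the same comparison. Of the 37 genes with an ERSE, 19 were tested, 3 of them among the 10 genes. In NT+/+ mice 2 were higher and 8 lower (42.1% lower, against 10.4% of all genes), with a median log2 fold change of -0.32, and in NT-/- mice 2 were higher and 7 lower (36.8%, against 12.6%), with a median of -0.30. Besides Hsp90b1 and Creld2, the lower genes included Calr, the lectin chaperone calreticulin (-0.44 and -0.40), and Pdia6, a disulfide isomerase (-0.55 and -0.64). Calr, Pdia6, Dnajc3, and, in NT+/+ mice only, Canx are also counted in the chaperone list above, so these counts are not independent of it. The lower genes outside that list and the 10 genes were Alg12 (-0.48 and -0.71) and Spats2l (-0.48 and -0.51). The 2 higher genes were the same in both genotypes. They were Acacb, an acetyl-CoA carboxylase, at 2.37 (SE, 0.22) and 2.29 (SE, 0.24), and Pan2, at 0.47 (SE, 0.09) and 0.37 (SE, 0.10). Of the 12 genes with an ERSE-II, 9 were tested, and 2 were higher and 1 lower in each genotype. These calls are 33.3% of a short list, against 21.6% and 25.2% of all genes, and the list includes Herpud1 itself. Herpud1 and Nucb1 rose and Dnajb11, a BiP cochaperone, fell (-0.35 and -0.32). The core of the UPR element was in 115 tested genes, of which 8 were higher and 15 lower in NT+/+ and 13 higher and 14 lower in NT-/- mice. The shares of the 115 called lower, 13.04% and 12.2%, were close to the 10.4% and 12.6% of all genes. The named examples were picked after their values were seen, and none of these groups was tested as a set.

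How the 10 genes vary among mice of the same group was taken from deviations of log2 CPM from the group means, over 19 mice and 45 pairs, with permutation within groups (100000 resamples, two-sided). The deviations share their libraries, so differences between libraries enter every pair, and the permutation takes no account of replicate numbers. Of the 45 correlations 35 were above 0 (median r, 0.39), and 9 had an adjusted p under 0.05, all above 0. The strongest was between the cochaperones Sdf2l1 and Creld2 (Pearson's r = 0.86, permutation p = 1.70e-04, adjusted p = 0.00382; Spearman's rho = 0.85, permutation p = 2.90e-04, adjusted p = 0.00922; r = 0.80 without the 2 farthest mice). Hspa5 varied with Creld2 (r = 0.82, permutation p = 9.00e-05, adjusted p = 0.00382; rho = 0.79, permutation p = 4.10e-04, adjusted p = 0.00922; r = 0.76 without 2 mice) and with Sdf2l1 (r = 0.76, permutation p = 7.40e-04, adjusted p = 0.00765; rho = 0.73, permutation p = 0.00322, adjusted p = 0.0290; r = 0.67 without 2 mice). Mice with more Sdf2l1 than others of their group thus also had more Creld2 and Hspa5.

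Ern1 varied with Dnajb9 (r = 0.82, permutation p = 8.50e-04, adjusted p = 0.00765; rho = 0.72, permutation p = 0.00463, adjusted p = 0.0347; r = 0.64 without 2 mice). Herpud1 varied with Xbp1 (r = 0.71, permutation p = 0.00319, adjusted p = 0.0239), a relation that was less firm by rank (rho = 0.60, permutation p = 0.0151, adjusted p = 0.0850; r = 0.53 without 2 mice). By the same permutation test Herpud1 also varied with Ern2 (r = 0.65, adjusted p = 0.0415), with rho = 0.69 (adjusted p = 0.0290). Hspa5 varied with Hsp90b1 (r = 0.67, adjusted p = 0.00765), with rho = 0.74 (adjusted p = 0.0219). The 9 also held Dnajb9 with Hsp90b1 (r = 0.66) and Xbp1 with Creld2 (r = 0.62), each with an adjusted p of 0.0415, against 0.121 and 0.0618 by rank. Herpud1, the gene that rose, had r of 0.50 with both Sdf2l1 and Creld2, which fell, with adjusted p values of 0.0940 in the permutation test.

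**Figure D5:**
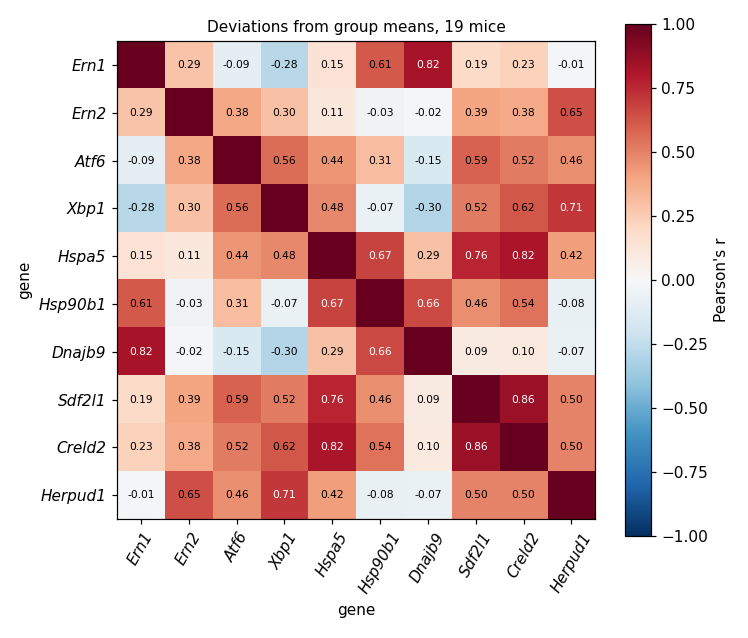
Pearson's r between the deviations of log2 CPM from group means for each pair of the 10 genes over 19 mice; red is above 0 and blue below 0. The block of Hspa5, Sdf2l1, and Creld2 has r from 0.76 to 0.86, and Ern1 with Dnajb9 has 0.82.

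Over the 9400 genes with a mean of at least 10 CPM, the genes outside the 10 whose deviations were most like those of 3 of them were looked up, as a description. For Hspa5 these were Manf (r = 0.90), Dnajb11 (0.90), and Hyou1 (0.90). For Xbp1 they were Med13l (0.88), Sec24c (0.87), and Qrich1 (0.87). For Ern2 they were Rap1gap (0.92), Gm44985 (0.90), and Ttc39a (0.89), and Gm44985 is a gene model at chr7:122167029-122168044, on the same strand as Ern2 and next to its end.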

How the data were processed

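RNA of small intestinal crypts from 19 mice was sequenced as single-end reads after ribosomal RNA depletion (KAPA RNA Hyper with RiboErase). The authors trimmed reads with Trimmomatic 0.39 and estimated gene abundance with RSEM on GRCm38 transcripts, and deposited for each mouse the expected count and the TPM of 55487 genes. The RSEM version and the strand setting are not given in the sources used here. An expected count divides reads shared between genes by a model, and TPM is scaled to the same total in every library, so neither shows absolute RNA amounts.

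Expected counts were rounded to whole numbers. Genes were filtered with filterByExpr, leaving 17875, scaled by the trimmed mean of M values, and tested in edgeR 4.0.16 (R 4.3.3) by the quasi-likelihood test with 1 coefficient per group over all 19 mice (15 residual degrees of freedom, common biological coefficient of variation of 18.9%) and Benjamini-Hochberg adjustment. SEs belong to the log2 fold changes. TPM served only to compare genes. A mouse was placed in its group by its title. Depth ran from 9059418 to 35068669 counts, and the number of mice limits the precision. Gene positions are from GENCODE vM21 and promoter windows from RefSeq (GRCm38.p6). Alternatives were no filter, a minimum of 10 counts in each mouse, scaling by the upper quartile, DESeq2 1.42.0, the replicate number as a block, sex as a covariate, the other label of 1 mouse, only the groups compared, and leaving out each mouse. The fit without the 2 libraries of lowest total was added after seeing the data. The fits were tested on simulated data.

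The 10 genes and all lists were chosen with earlier results of these data known. Named genes are the 10, the 4 of smallest p from each other UPR list in each fasting comparison, defining markers, and for Hspa5, Xbp1, and Ern2 the 3 other genes of at least 10 CPM with the highest within-group correlation. A comparison of the Ern1 and Ern2 proteins was planned and not run. The values of 1 gene that this rule names are not reported here.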

Additional observations from a re-analysis of the deposited data

Results flagged for a closer look

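Each of the 10 genes was examined in each of the 4 groups for a mouse far from the others by Dixon's test, 40 groups in all. In 1 of them a mouse stood apart. Hspa5 was at 537 CPM in NT-/- Fast replicate 1, and the other 4 mice of the group were at 419.6 to 449.6 CPM, so that the gap to the nearest mouse was 0.745 of the range of the group. Chance flags about 1 in 20 groups.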

How the results depend on the processing

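The calls of Herpud1, Sdf2l1, and Creld2 on fasting held in both genotypes under every alternative and without any 1 mouse. The number of the 10 genes called in NT+/+ mice was 3 to 6 without 1 mouse, with 3 without NT+/+ Fast replicate 4. Hspa5 in NT+/+ mice was called with at least 10 counts in every mouse (adjusted p = 0.0398), upper quartile scaling (0.0398), and DESeq2 (0.0417), and Xbp1 (0.0703) in NT+/+ and Hsp90b1 (0.0544) in NT-/- mice lost their calls with no filter. Hsp90b1 in NT-/- mice also lost its call with sex as a covariate (0.0601), a fit that dropped NT-/- Fast replicate 5, whose sex is not labelled here. The cause of these changes was not tested. DESeq2 called 4 genes in all between genotypes in fed mice, 99 in fasted mice, and 1 for the difference in fasting effect, against 1, 1, and 0 in edgeR, and none of them was among the 10. At least 10 counts in every mouse gave 0 and 0 genes in fed and fasted mice, as did NT+/+ Fast replicate 5 as NT-/-, and leaving out 1 mouse gave 1 to 4 in fasted mice (4 without NT-/- Fast replicate 1). ER chaperones called lower in NT-/- mice numbered 7 without the 2 libraries of lowest total.

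Same-numbered mice of different groups deviated together in part (mean r of 0.18 over 27 pairs by title number, lowest -0.13, and 0.23 by file number, lowest 0.067), against -0.046 and -0.056 over 108 pairs of different numbers. By file number 24 of the 27 pairs had r over 0.1, and 17 of 19 mice correlated best with a mouse of their own number (13 by title number). The labels tie the numbers to no litter or batch, while the methods describe controls as littermates matched for sex and age. Whether the numbers mark such matched mice is not stated. The block stayed an alternative, so the main tests and the permutation p values leave out any pairing by number. With the replicate block by title number 5006 genes were called on fasting in NT+/+ and 5657 in NT-/- mice, and by file number 5484 and 5672, against 3862 and 4499 without a block. Hspa5 in NT+/+ mice was then called (adjusted p = 0.0330 and 0.0201), and by file number so were Hspa5 and Ern2 (0.0424) in NT-/- mice. With the block by file number the log2 fold change of Dnajb9 on fasting in NT-/- mice was 0.10, its difference between genotypes 0.093, and the genotype effect in fed mice 0.022 for Xbp1 and 0.010 for Atf6. By title number the last was 0.017 for Atf6 and -0.0019 for Herpud1.

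Other changes of sign concerned uncalled values near 0. With NT+/+ Fast replicate 5 as NT-/-, Dnajb9 on fasting was -0.043 in NT+/+ and 0.011 in NT-/- mice, Atf6 between fasted genotypes was 0.00698, and the difference in fasting effect was 0.010 for Atf6, -0.016 for Herpud1, and 0.053 for Dnajb9. Without the 2 libraries of lowest total, Atf6 was 0.031 on fasting in NT-/- mice, 0.063 between fasted genotypes, and 0.066 in the difference of effects, with -0.082 for Dnajb9 between fasted genotypes and 0.049 for Sdf2l1 in the difference. In fed mice the genotype effect was 0.0055 for Ern1 and 0.00567 for Atf6 with no filter, and 0.0019 for Xbp1 and 0.0083 for Atf6 with sex as a covariate. Leaving out 1 mouse at a time gave ranges across 0 for Dnajb9 on fasting (-0.085 to 0.26 in NT+/+ and -0.17 to 0.094 in NT-/- mice), for the genotype effect in fed mice of Xbp1 (-0.082 to 0.029), Ern1 (-0.047 to 0.039), Atf6 (-0.039 to 0.038), and Herpud1 (-0.13 to 0.15), and in fasted mice of Atf6 (-0.085 to 0.017) and Dnajb9 (-0.14 to 0.21). The same held for the difference in fasting effect of Hspa5 (-0.035 to 0.19), Atf6 (-0.082 to 0.020), Herpud1 (-0.041 to 0.25), Sdf2l1 (-0.21 to 0.041), Dnajb9 (-0.30 to 0.038), Creld2 (-0.027 to 0.20), and Hsp90b1 (-0.0089 to 0.13).

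With 4 or 5 mice a group, the SEs of the 10 genes on the log2 scale were 0.08 to 0.26 for the genotype effects and 0.11 to 0.36 for the difference in fasting effect, and an uncalled difference does not show that genotypes were alike. Counts per gene do not show splicing of Xbp1 or cleavage of ATF6, and RNA does not show protein.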
